A study of Mus musculus with 4 samples.

Results

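The transcription factor NF-κB was examined through 10 genes in J558 allografts from mice treated with the CDC7 inhibitor TAK-931. The genes were chosen by name, by their known roles in NF-κB signalling, out of 24421 genes in the deposited count tables. Earlier results of these data were known when they were chosen. They were the subunit genes Nfkb1, Nfkb2, Rela, Relb and Rel, the inhibitor genes Nfkbia and Nfkbie, the atypical IκB genes Nfkbiz and Bcl3, and Tnfaip3. All 10 passed the filter on low counts, which kept 13669 genes. J558 is a mouse plasmacytoma cell line, grown here under the skin of female BALB/c mice. Tumours were taken on day 6 from mice given 0.5% methylcellulose by mouth (libraries Vehicle-1 and Vehicle-2) or TAK-931 at 60 mg/kg by mouth each day (libraries TAK-931-1 and TAK-931-2), with n = 2 per group. Both groups carried the same cell line in hosts with an intact immune system, and RNA was taken from the whole tumour, so host cells were sequenced together with J558 cells.

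NF-κB is a dimer of REL-family proteins. In resting cells it is held in the cytoplasm by IκB proteins, and signals from cytokine, antigen and Toll-like receptors make the IκB kinase (IKK) complex mark IκB for destruction, which lets the dimer enter the nucleus. In the canonical pathway the released dimers contain RELA or REL with p50, the product of Nfkb1. In the non-canonical pathway the kinase NIK (Map3k14) leads to processing of the Nfkb2 product to p52, which pairs with RELB. Several of the genes that NF-κB switches on encode its own subunits and inhibitors, among them IκBα (Nfkbia), IκBε (Nfkbie) and the ubiquitin-editing enzyme A20 (Tnfaip3), and this forms the feedback that ends the response. The nuclear proteins IκBζ (Nfkbiz) and BCL3 act differently, since they bind p50 or p52 on DNA and can raise transcription. In plasma cell tumours NF-κB is best known as a survival pathway, and in infiltrating immune cells as a regulator of inflammatory genes.

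The κB consensus, a DNA sequence pattern bound by NF-κB, was looked up in the promoters of these genes. RefSeq promoter windows (GRCm38.p6) were found for 7 of the 10 genes, namely Nfkb2, Rela, Rel, Nfkbia, Nfkbie, Tnfaip3 and Bcl3. The 250 bases before each transcript start were searched on both strands for the κB consensus, with overlapping matches merged. Of the 7 genes, 5 (71.4%) held at least 1 match, against 8.23% of the 27025 genes with a window. The genes were chosen for roles in NF-κB signalling, and several are known to be switched on by it. This gap is therefore not independent of the choice. The matches with nearby sequence are shown because they stand just before the starts of the feedback genes described next. They are written 5′ to 3′ on the strand of the gene, with the match in capitals.

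Nfkbia, chr12:55492648-55492701, minus strand: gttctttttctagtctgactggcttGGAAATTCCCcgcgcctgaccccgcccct

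Nfkbie, chr17:45555569-45555628, plus strand: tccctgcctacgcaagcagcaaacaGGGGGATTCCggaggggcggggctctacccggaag

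Tnfaip3, chr10:19015411-19015447, minus strand: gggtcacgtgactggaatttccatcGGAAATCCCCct

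Rel, chr11:23771026-23771086, minus strand: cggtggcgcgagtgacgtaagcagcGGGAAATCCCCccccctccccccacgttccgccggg

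Nfkb2, chr19:46304689-46304717, plus strand: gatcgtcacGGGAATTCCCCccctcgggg

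Nfkb2, chr19:46304717-46304736, plus strand: gggccgaaaGGGGCTTTCCc

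The match of Tnfaip3 began 12 bases before its transcript start, that of Nfkbia 29 bases before it, that of Rel 92 bases before it and that of Nfkbie 106 bases before it. Nfkb2 held 2 matches before the most upstream of its RefSeq starts, beginning 39 and 11 bases before it. Tnfaip3 held a further match beginning 125 bases before its start. Each of these matches, taken with up to 25 bases on either side, overlapped a GENCODE exon of its gene. Nfkb2 also held 2 matches before downstream starts, at −236 and −225 from them. These and the further match of Tnfaip3 are not printed, as each begins farther before its own start than any match shown. The windows of Rela and Bcl3 held none. A match is a run of letters in the reference genome, and binding was not measured in these tumours.

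Library totals were between 16487902 and 19589339 counts. TAK-931-1 stood apart from the other libraries. Across genes, log2 CPM (depth-scaled counts, with library sizes adjusted by the TMM method) gave an r of 0.977 for the vehicle pair and 0.865 for the TAK-931 pair. With Vehicle-1 and Vehicle-2, the r was 0.950 and 0.939 for TAK-931-2, higher than with its own group, and 0.806 and 0.791 for TAK-931-1. All 12 plasma cell and J558 markers examined were detected in every library. Their summed levels were 15410 and 15663 CPM in the vehicle pair, against 6236 CPM in TAK-931-1 and 18149 in TAK-931-2. Jchain, 1 of the 12, gave 5080 and 5658 CPM of these sums in vehicle, 3136 CPM in TAK-931-1 and 8124 in TAK-931-2. The 19 leukocyte markers summed to 225 and 174 CPM in the vehicle pair, against 3571 CPM for TAK-931-1 and 613 for TAK-931-2, and all 19 had their highest level in TAK-931-1. Klrb1c and S100a8 were at 0 counts in at least 1 library, and so was the fat marker Plin1. The 11 markers of stroma and endothelium summed to between 2091 and 2354 CPM in vehicle, against 15535 CPM in TAK-931-1 and 5325 in TAK-931-2. The 7 markers of skeletal muscle and fat summed to 561 CPM in TAK-931-1 and to between 11.7 and 86.3 CPM in the other libraries. In bulk RNA, fewer cells of a type and less RNA per cell cannot be told apart, and the part of cell composition in the results was not tested.

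To ask whether NF-κB genes differed with treatment, TAK-931-treated and vehicle-treated allografts were compared. The genes for the atypical IκB proteins, IκBε and A20 were higher in each treated tumour than in either control tumour, and so were Nfkb1, Nfkb2, Relb and Rel, by smaller amounts. Rela was nearly level, and Nfkbia moved in opposite directions in the 2 treated tumours. Thus 8 of the 10 genes had groups that did not overlap, all 8 higher with TAK-931, where 30% of all genes tested did so in this direction. No gene of the 10 passed an adjusted p of 0.05 in edgeR's quasi-likelihood test, which called 0% of all genes. The lowest adjusted p among them was 0.275.

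Nfkbiz, which encodes the nuclear cofactor IκBζ (chromosome 16, 55811377 to 55838641, mm10), had the largest fitted log2 fold change of the 10, 2.41 against 2.38 for Bcl3. Bcl3 was the larger in TAK-931-2 and in some refits, among them that without TAK-931-1 (1.81 against 1.69). Nfkbiz had 8.42 and 10.1 CPM in the vehicle pair, against 68.5 CPM in TAK-931-1 and 29.8 in TAK-931-2. The lower of the treated libraries was thus well above both vehicle-treated libraries, although the treated libraries also lay far apart. Relative to the vehicle mean, Nfkbiz was 7.41-fold (TAK-931-1) and 3.22-fold (TAK-931-2). Its fitted log2 fold change was 2.41 (SE 0.50, 95% interval 1.07 to 3.75), with an adjusted p by edgeR of 0.275.

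Bcl3, the other atypical IκB gene (chromosome 7, 19808462 to 19822755), encodes a coactivator for p50 and p52 dimers. Its levels were 7.83 and 5.04 CPM in the vehicle pair, against 44.2 CPM in TAK-931-1 and 22.6 in TAK-931-2. As for Nfkbiz, TAK-931-1 was the highest library and the groups did not overlap. The ratio to the vehicle mean was 6.87-fold for TAK-931-1 and 3.51-fold for TAK-931-2, and the log2 fold change was 2.38 (SE 0.50, adjusted p by edgeR 0.275). Nfkbiz and Bcl3 were also the 2 genes with the widest gap between the treated libraries, with TAK-931-1 at 2.30-fold and 1.96-fold of TAK-931-2. Without TAK-931-1 the log2 fold change was 1.69 for Nfkbiz and 1.81 for Bcl3.

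Nfkbie (chromosome 17, 45555700 to 45563168) encodes IκBε, a cytoplasmic inhibitor that restrains RELA and REL dimers. It had 16.4 and 10.4 CPM in vehicle, against 45.5 CPM in TAK-931-1 and 36.9 in TAK-931-2. Both treated libraries exceeded the higher vehicle-treated library by a margin wider than the spread within either group. The log2 fold change was 1.62 (SE 0.35, adjusted p by edgeR 0.275), and the ratio to the vehicle mean was 3.40-fold for TAK-931-1 and 2.75-fold for TAK-931-2.

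Tnfaip3 (chromosome 10, 19000910 to 19015410) encodes A20, which removes and edits ubiquitin chains on the signalling proteins upstream of IKK. Its level was 34.2 and 36.4 CPM in the vehicle pair, against 66.0 CPM in TAK-931-1 and 76.9 in TAK-931-2. Here the pairs were close within each group, and TAK-931-2 was the higher of the treated libraries. The ratio of Tnfaip3 to the vehicle mean was 1.87-fold for TAK-931-1 and 2.18-fold for TAK-931-2, with a log2 fold change of 1.02 (SE 0.22, adjusted p by edgeR 0.275).

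Nfkbia (chromosome 12, 55489409 to 55492647) encodes IκBα, the best known inhibitor of the canonical pathway. It was at 213 and 208 CPM in the vehicle pair, against 175 CPM in TAK-931-1 and 278 in TAK-931-2. TAK-931-1 lay below both vehicle-treated libraries and TAK-931-2 above both, so the direction rested on the library chosen. The ratio to the vehicle mean was 0.832-fold for TAK-931-1 and 1.32-fold for TAK-931-2. The fitted log2 fold change was 0.11 (SE 0.31, adjusted p by edgeR 0.851). A refit gave 0.40 (adjusted p by edgeR 0.00776) when TAK-931-1 was left out and −0.29 (adjusted p by edgeR 0.0316) when TAK-931-2 was left out.

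**Figure D1:**
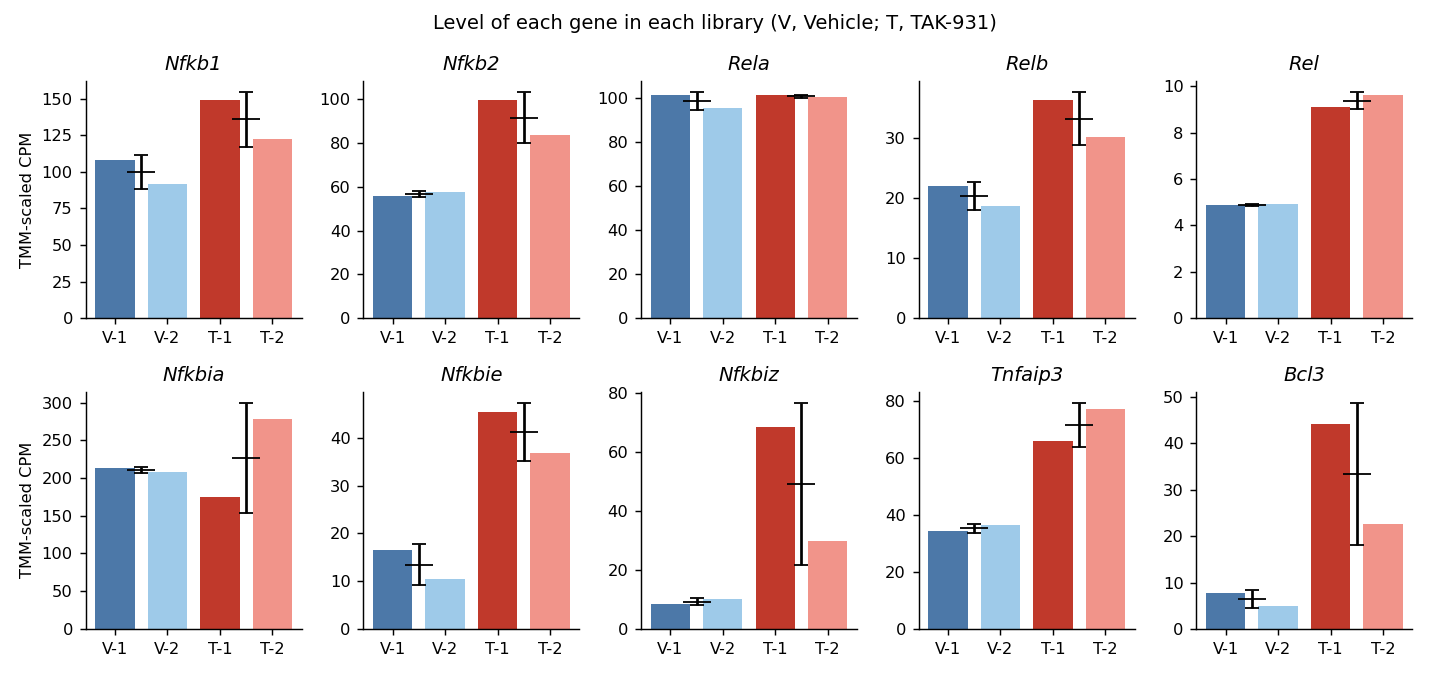
TMM-scaled CPM (vertical axes, from 0) of the 10 NF-κB genes in the 4 libraries, 1 panel per gene; bars are single libraries (V, Vehicle; T, TAK-931) and black marks the mean ± SD of each group (n = 2). Both treated bars exceed both vehicle bars in 8 panels, the Rela bars are nearly level, and the Nfkbia bars of the treated libraries lie on opposite sides of vehicle (175 and 278 CPM).

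Among the subunit genes, log2 fold changes were between 0.034 and 0.94. Rel (chromosome 11, 23741729 to 23770970), whose product c-Rel is prominent in lymphoid tissue, was at 4.86 and 4.92 CPM in the vehicle pair, against 9.11 CPM in TAK-931-1 and 9.63 in TAK-931-2. The ratio between its vehicle-treated libraries was the closest to 1 among the 10 genes, and its treated libraries were also close to each other. It rested on 82 counts in each vehicle-treated library, 173 in TAK-931-1 and 165 in TAK-931-2, the fewest of the 10 genes in every library. Rel was 1.86-fold (TAK-931-1) and 1.97-fold (TAK-931-2) the vehicle mean, with a log2 fold change of 0.94 (SE 0.42, adjusted p by edgeR 0.298).

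Relb and Nfkb2, the partners of the non-canonical dimer, were next. Relb (chromosome 7, 19606222 to 19629438) had 21.9 and 18.6 CPM in vehicle, against 36.3 CPM in TAK-931-1 and 30.1 in TAK-931-2. Nfkb2 (chromosome 19, 46304737 to 46312090) had 55.6 and 57.6 CPM in vehicle, against 99.7 CPM in TAK-931-1 and 83.4 in TAK-931-2. In both genes TAK-931-1 was the highest library, TAK-931-2 came next, and the groups did not overlap. The log2 fold change was 0.71 (SE 0.27, adjusted p by edgeR 0.276) for Relb and 0.69 (SE 0.21, adjusted p by edgeR 0.275) for Nfkb2. An exon of Psd on the opposite strand overlaps Nfkb2, and since the strand setting of the counting was not given in the sources used here, reads of the overlap cannot be assigned with certainty. Psd had a mean of 9.57 CPM over the 4 libraries.

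Nfkb1 and Rela encode the subunits of the commonest canonical dimer. Nfkb1 (chromosome 3, 135584655 to 135691547) was at 108 and 91.8 CPM in the vehicle pair, against 149 CPM in TAK-931-1 and 123 in TAK-931-2. The treated libraries were higher, but TAK-931-2 exceeded Vehicle-1 by less than the vehicle-treated libraries differed from each other. The log2 fold change of Nfkb1 was 0.44 (SE 0.23, adjusted p by edgeR 0.335). Rela (chromosome 19, 5637490 to 5648130) had 101 and 95.7 CPM in vehicle, against 101 CPM in TAK-931-1 and 100.4 in TAK-931-2. The treated libraries of Rela thus fell within the range of vehicle, and its log2 fold change was 0.034 (SE 0.20, 95% interval −0.49 to 0.56).

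**Figure D2:**
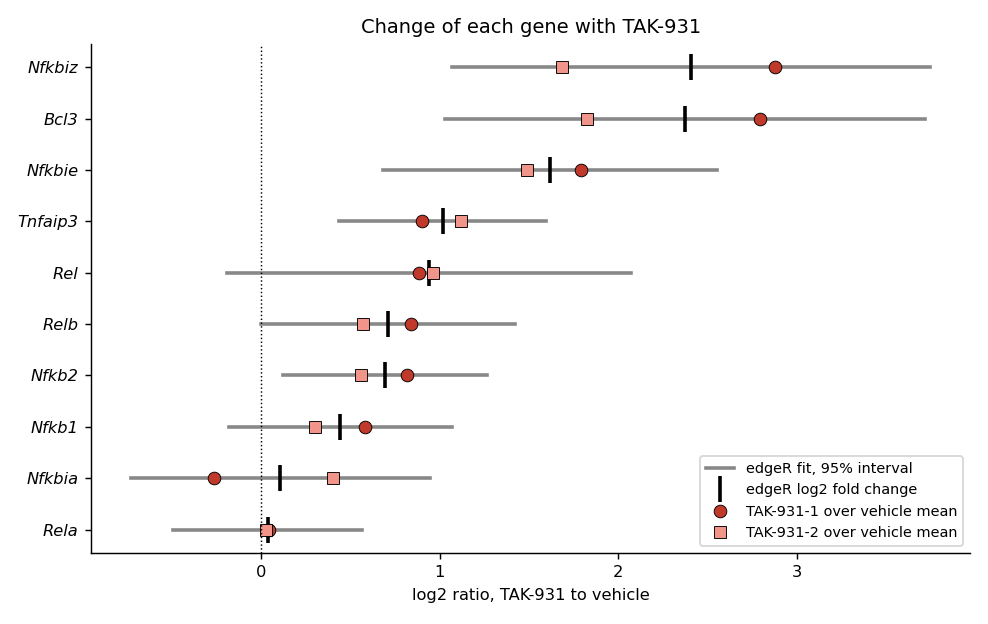
Log2 ratio of TAK-931 to vehicle (horizontal axis) for each NF-κB gene (rows, ordered by the fitted value); black ticks are edgeR log2 fold changes over both groups (n = 2 each), grey lines their 95% intervals, circles and squares the ratios of TAK-931-1 and TAK-931-2 to the vehicle mean. Nfkbiz and Bcl3 lie farthest to the right at 2.41 and 2.38, Rela lies at 0.034, and Nfkbia is the gene whose treated libraries lie on opposite sides of 0.

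Over the 10 genes the median log2 fold change was 0.82, and it was 0.024 over all 13669 genes tested, whose 75th percentile was 0.89. All 10 fitted values were positive, with a range of 0.034 to 2.41. At an unadjusted p under 0.05, edgeR gave 5 of the 10, all 5 higher (Nfkb2, Nfkbie, Nfkbiz, Tnfaip3 and Bcl3), where 11.6% of all genes were higher at this level. DESeq2 called 4 of them at an adjusted p under 0.05 (Nfkbie, Nfkbiz, Tnfaip3 and Bcl3), all 4 higher, where it called 9.78% of the genes with an adjusted p higher, and limma-voom called 0. The edgeR calls depended on which treated library was used. When TAK-931-1 was left out it called 6 of the 10, all 6 higher (12.6% of genes called higher), and when TAK-931-2 was left out it called 7 higher (28.2% of genes) and Nfkbia lower (29.8% of genes called lower), whereas it called 0 when either vehicle-treated library was left out. In a fit with 1 treated library, that library was assumed to vary like the vehicle pair.

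Set against the vehicle mean, the median log2 ratio of the 10 genes was 0.86 for TAK-931-1 and 0.77 for TAK-931-2, whereas leukocyte markers stood farther apart in the treated tumours. The median of the 19 leukocyte markers was 4.03 for TAK-931-1 and 1.66 for TAK-931-2, and their summed level in TAK-931-1 was 5.82-fold that in TAK-931-2. Among the 10 genes, TAK-931-1 over TAK-931-2 was between 0.630-fold for Nfkbia and 2.30-fold for Nfkbiz. TAK-931-1 was the higher of the treated libraries in 7 genes, and TAK-931-2 in Rel, Nfkbia and Tnfaip3. Ptprc, the gene of the pan-leukocyte antigen CD45, was 22.0-fold (TAK-931-1) and 4.44-fold (TAK-931-2) the vehicle mean, beyond every one of the 10 genes in the same library. Of the 12 plasma cell and J558 markers, 11 had their lowest level in TAK-931-1, while in TAK-931-2 the 12 ran from 0.650-fold to 2.23-fold the vehicle mean, with 7 of them above the vehicle pair. Among them, the tumour antigen gene Trap1a was at 0.320-fold (TAK-931-1) and 1.11-fold (TAK-931-2), and the antibody joining chain gene Jchain at 0.584-fold (TAK-931-1) and 1.51-fold (TAK-931-2). These are values of single libraries, with no replicate check.

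**Figure D3:**
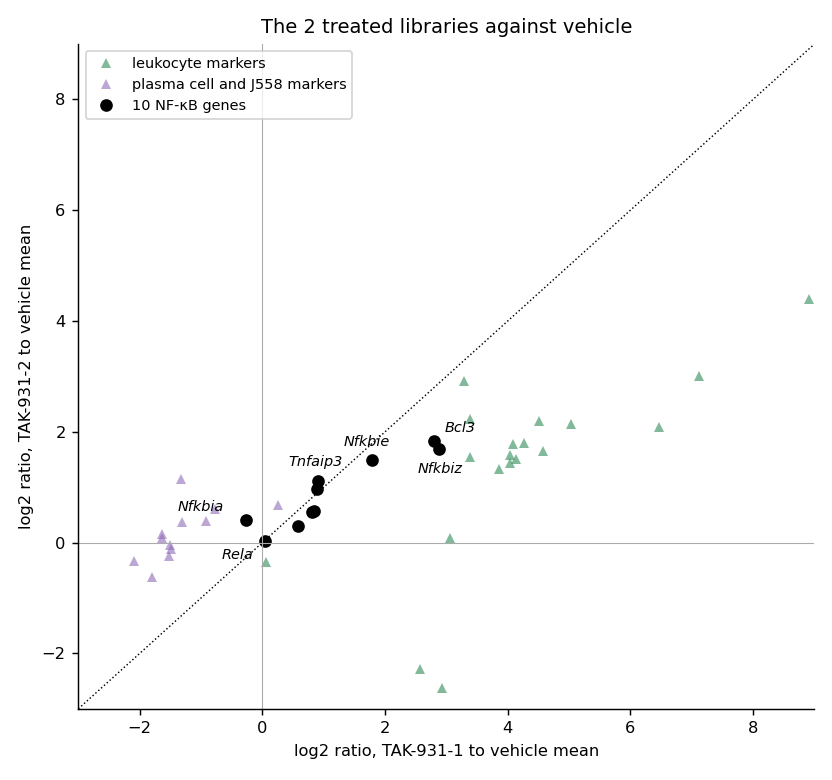
Log2 ratio over the mean of vehicle in TAK-931-1 (horizontal axis) and TAK-931-2 (vertical axis); each point is 1 gene, black circles are the 10 NF-κB genes, green triangles 19 leukocyte markers and purple triangles 12 plasma cell and J558 markers, with equal values on the dotted line. Both axes share the vehicle mean. Most NF-κB genes lie near the dotted line (medians of all 10 are 0.86 and 0.77), and Nfkbia lies above it (−0.27 and 0.40). Nfkbiz (2.88 and 1.68) and Bcl3 (2.79 and 1.83) lie below it, as do the leukocyte markers (medians 4.03 and 1.66).

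Levels were compared between genes per kilobase of exon, since longer transcripts give more reads. In vehicle, Nfkbia was the highest of the 10 with 133 ± 2.35 CPM per kilobase (SD, n = 2). Rela followed with 36.4 (35.3 and 37.4 in the libraries), Nfkb1 with 24.3 ± 2.81 and Nfkb2 with 17.2 ± 0.426, all in CPM per kilobase. Relb had 9.22 ± 1.06, Tnfaip3 7.69 ± 0.343 and Nfkbie 5.50 ± 1.76, and the lowest were Bcl3 with 3.50 ± 1.08, Nfkbiz with 2.38 ± 0.301 and Rel with 1.89 ± 0.0144. Neighbours in this order did not overlap between the vehicle-treated libraries, except Nfkbie and Bcl3. The top 4 genes and the lowest gene kept their places in all 4 libraries. The middle of the order changed in TAK-931-1, where Bcl3 had 24.1 CPM per kilobase and stood above Nfkbie (18.7), Nfkbiz (17.7), Relb (16.5) and Tnfaip3 (14.4). In TAK-931-2, Tnfaip3 (16.7 CPM per kilobase) stood above Nfkbie (15.1), Relb (13.7) and Bcl3 (12.3).

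To compare the makeup of the pool without scaling between libraries, ratios were taken within each library from counts per kilobase. Nfkbia, Nfkbie and Tnfaip3 together were at 1.61 and 1.68 times the sum of the 5 subunits in the vehicle-treated libraries, at 1.16 times in TAK-931-1 and at 1.90 times in TAK-931-2. The treated libraries lay on both sides of vehicle, and the exact permutation test over libraries gave p = 1 (n = 2 per group). Nfkbia made up 90.5% and 91.5% of that inhibitor sum in vehicle, 77.1% in TAK-931-1 and 84.7% in TAK-931-2. Nfkbiz and Bcl3 together were at 0.0696 and 0.0625 times the subunits in vehicle, 0.337 times in TAK-931-1 and 0.182 times in TAK-931-2. For this ratio the groups did not overlap, and the exact permutation test gave p = 0.333, the smallest value that 2 libraries against 2 allow.

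Within the 5 subunits, the share of Rela was lower and that of the non-canonical partners higher in both treated libraries. Rela made up 40.5% and 41.3% in vehicle, 30.2% in TAK-931-1 and 33.8% in TAK-931-2. Nfkb2 and Relb together made up 29.1% and 30.4% in vehicle, 37.8% in TAK-931-1 and 35.6% in TAK-931-2. The share of Rel was between 2.04% and 2.23% in vehicle and between 2.85% and 3.40% with TAK-931. Nfkb1 kept between 26.1% and 29.2% in all 4 libraries, with overlapping groups. Over the 5 shares tested, the exact permutation p was 0.333 for Nfkb2, Rela, Relb and Rel (0.417 after Benjamini-Hochberg adjustment) and 0.667 for Nfkb1, so none could pass at this sample size. Since the shares add to 100%, they are not independent of each other.

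**Figure D4:**
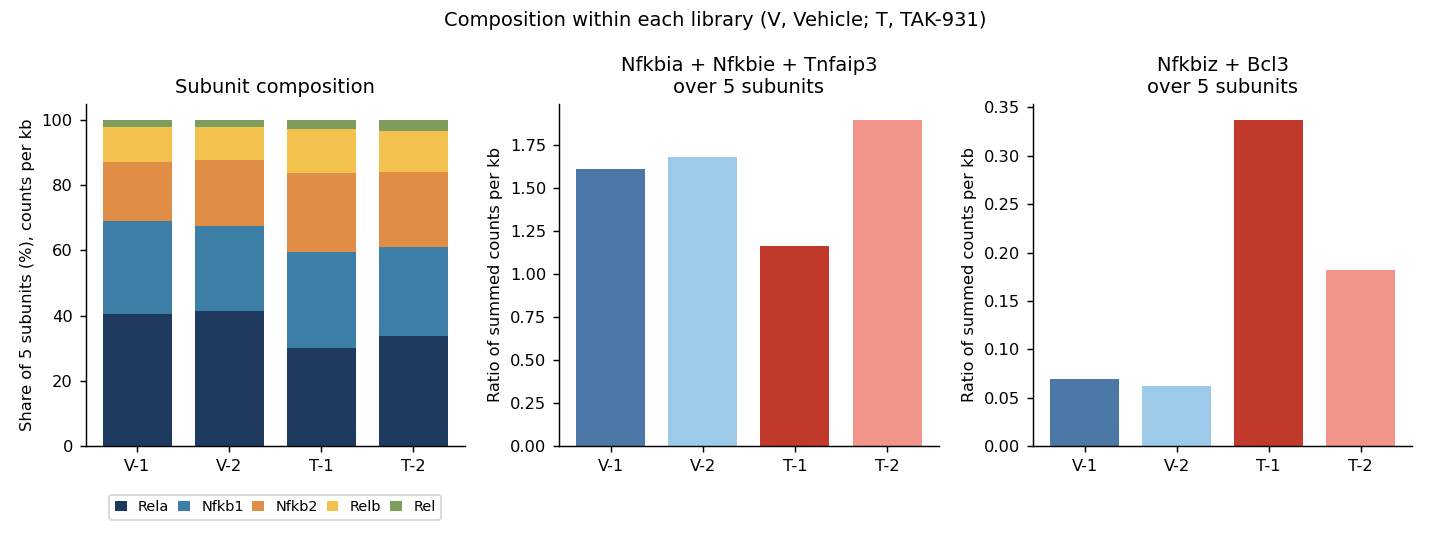
Left, share (%) of each of the 5 subunit genes in their sum of counts per kilobase in each library; middle and right, the ratio of 3 inhibitor genes and of 2 atypical IκB genes to that sum (vertical axes from 0; bars are single libraries; V, Vehicle; T, TAK-931). Rela takes 40.5% and 41.3% in vehicle but 30.2% and 33.8% with TAK-931; the inhibitor ratio of the treated libraries lies on both sides of vehicle, and the atypical IκB ratio is higher in both.

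The genes around the 10 were followed through 3 lists. In the list from receptors to IKK, 27 of 27 genes were tested and the median log2 fold change was 0.30. By edgeR 0 passed an adjusted p of 0.05, and at an unadjusted p under 0.05 there were 4 higher and 0 lower (11.6% and 6.55% of all genes). The IKK subunit genes had log2 fold changes of 0.36 (SE 0.30) for the catalytic subunit gene Ikbkb, 0.34 (SE 0.20) for the scaffold gene Ikbkg and −0.47 (SE 0.23) for the catalytic subunit gene Chuk, the lowest of the list. Map3k14, the gene of the non-canonical kinase NIK, had 4.15 and 5.87 CPM in vehicle, against 30.1 CPM in TAK-931-1 and 11.9 in TAK-931-2, with a log2 fold change of 2.07 (SE 0.61). Traf3, which keeps NIK low, was at 71.6 and 62.3 CPM in vehicle, against 56.7 CPM in TAK-931-1 and 94.8 in TAK-931-2, so its treated libraries lay on both sides of vehicle, as for Nfkbia. Cd40, a receptor that feeds both pathways in B cells and antigen-presenting cells, had 5.81 and 1.56 CPM in vehicle and 25.4 and 20.5 CPM with TAK-931. Traf5, an adaptor gene of TNF receptor signalling, had the highest log2 fold change of the list, 2.80 (SE 0.90), and 1.41 without TAK-931-1. The value of Map3k14 was 1.24 without TAK-931-1, and that of Cd40, 2.64 (SE 0.74), was 3.88 without Vehicle-1 and 1.96 without Vehicle-2. DESeq2 called 3 of the 27 higher and 0 lower, where it called 9.78% of genes with an adjusted p higher and 1.18% lower.

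Among 19 other regulators, the median log2 fold change was 0.33, and edgeR called 0 of 19, with 4 higher and 1 lower at an unadjusted p under 0.05 (11.6% and 6.55% of all genes). Nfkbid, a further atypical IκB gene beside Nfkbiz and Bcl3, had 3.14 and 6.17 CPM in vehicle, against 20.2 CPM for TAK-931-1 and 10.6 for TAK-931-2, and the fit gave 1.73 (SE 0.60) on the log2 scale. The groups of Nfkbid did not overlap, as for the other atypical genes. Nfkbib, the gene of the cytoplasmic inhibitor IκBβ, had a log2 fold change of −0.080 (SE 0.25). The deubiquitinase gene Cyld had −0.17 (SE 0.27), the A20-binding protein gene Tnip1 had 0.62 (SE 0.30) and the RNase gene Zc3h12a had 0.83 (SE 0.34). The extremes of the list were Usp18, an interferon-inducible gene, at 2.84 (SE 0.69), and Cops5, a COP9 signalosome subunit gene, at −1.05 (SE 0.26). Usp18 had 4.27 CPM in Vehicle-1 and 1.80 CPM in Vehicle-2, and its value was 3.58 without Vehicle-1, 2.32 without Vehicle-2 and 2.19 without TAK-931-1. In all, 9 of the 19 genes were higher and 5 lower with no overlap between groups (30% and 32.7% of all genes). DESeq2 called 1 of the 19 higher, Usp18, and 1 lower, Cops5 (9.78% and 1.18% of genes with an adjusted p).

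Of 30 genes known to be induced through NF-κB, 27 were tested, and the log2 fold change was positive in 25. Their median was 2.00, beside 0.82 for the 10 regulators. Again edgeR called 0 at an adjusted p of 0.05, with 19 higher and 1 lower at an unadjusted p under 0.05 (11.6% and 6.55% of all genes), and DESeq2 called 18 higher and 0 lower (9.78% and 1.18% of genes with an adjusted p). Several of these genes also respond to interferon or are made by immune cells. Icam1, an adhesion molecule gene, had 67.1 and 58.9 CPM in vehicle, against 166 CPM in TAK-931-1 and 126 in TAK-931-2, with a log2 fold change of 1.21 (SE 0.25). Birc3, the gene of the ubiquitin ligase cIAP2, had 63.9 and 63.7 CPM in vehicle, against 91.3 CPM in TAK-931-1 and 160.2 in TAK-931-2, so that TAK-931-2 was the higher of the treated libraries, as for Tnfaip3. Sod2, encoding mitochondrial superoxide dismutase, was nearly level, with a log2 fold change of 0.093 (SE 0.23). Larger values were found for Irf1 (1.72, SE 0.39), Cd83 (2.32, SE 0.64), Cxcl10 (3.06, SE 0.79), Traf1 (3.32, SE 0.79) and Tnf (3.61, SE 1.01), and the extremes of the list were Ccl5 at 4.54 (SE 1.17) and Gadd45b at −0.84 (SE 0.21). Several of these values moved when 1 library was left out. Tnf had 0.712 and 0.779 CPM in vehicle, against 15.4 CPM for TAK-931-1 and 2.98 for TAK-931-2. Its log2 fold change was 1.98 without TAK-931-1. Without the same library Traf1 had 1.95, Ccl5 had 2.96 and Cd83 had 1.63, and Cxcl10, with 15.5 CPM in Vehicle-1 and 3.48 CPM in Vehicle-2, had 4.51 without Vehicle-1 and 2.33 without Vehicle-2.

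**Figure D5:**
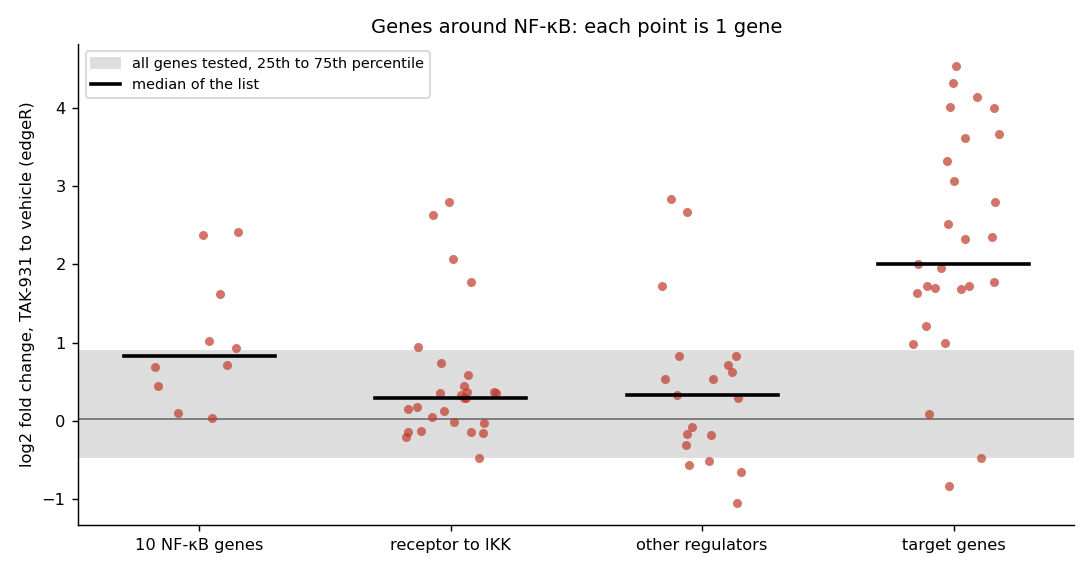
Fitted log2 fold change of TAK-931 to vehicle (vertical axis, edgeR, n = 2 per group) for the 10 NF-κB genes and 3 lists around them; each point is 1 tested gene, spread sideways for visibility, black lines are list medians and the grey band is the 25th to 75th percentile of all genes tested. The medians are 0.82 for the 10 genes, 0.30 for receptors to IKK, 0.33 for other regulators and 2.00 for target genes, where the band reaches 0.89.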

How the data were processed

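RNA-seq was analysed in 4 J558 allografts (2 Vehicle, 2 TAK-931), grouped by their titles. The authors deposited 1 table of read counts per gene and library. The submitters' processing notes name STAR 2.6.1c, featureCounts and mm10, and the column headers mark the alignments as unique. The strand setting is not given in the sources used here. Another column that the authors deposited, of a different kind, holds exon length in bases. Odd numbers made up 17.9% to 23.9% of the counts from 1 to 20, as happens where both mates of a pair are counted, so counting error may be larger than the counts imply. Depth was between 16487902 and 19589339 counts.

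Genes were kept with filterByExpr (minimum count 10), scaled by TMM and compared by edgeR 4.0.16's robust quasi-likelihood test (R 4.3.3), two-sided, with treatment as the only term and Benjamini-Hochberg adjustment over all genes tested. Single-library log2 ratios used a prior count of 2. Within-library ratios were tested by exact permutation. Scripts were tested on simulated data. Replicates of each group differed beyond counting noise, so none was counted as a repeat deposit. The labels name no mice, and the study's supplement ties only Vehicle-1 and TAK-931-1 to allografts in a plot of individual mice. Each library was taken as 1 tumour, and p-values measure the spread between these samples, which may in part be technical.

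The genes, lists and tests were chosen with earlier results of these data known. All 10 genes are named. Other genes named by a fixed rule were 20 list genes picked by role (1 of them is not reported here), the markers Ptprc, Trap1a and Jchain, and in each list the genes with the largest and the smallest log2 fold change. The alternatives were median-of-ratios factors, library size only, no filter, at least 10 counts in every library, a replicate block, each library left out, DESeq2 1.42.0, limma-voom (limma 3.58.1), a non-robust fit, halved counts, a prior count of 0.5, and raw counts or added genes in the within-library ratios. Promoter windows came from RefSeq. No window was found for Nfkb1, Nfkbiz or Relb in the set used, so their promoters were not searched.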

Additional observations from a re-analysis of the deposited data

How the results depend on the processing

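With all 4 libraries, 0 of the 10 genes passed in edgeR under both other scalings, both other filters, the non-robust fit, halved counts and the replicate block, and 0 passed in limma-voom. DESeq2 called 4 of the 10, 3 of the receptor to IKK list, 2 of the other regulators and 18 of the target genes. Leaving out 1 library at a time gave 0 to 8 called among the 10, 2 to 9 at an unadjusted p under 0.05, 0 to 17 in the receptor to IKK list, 0 to 16 among other regulators and 0 to 21 among target genes, and the upper ends came from leaving out a TAK-931-treated library. The share of all genes called was 28.7% without TAK-931-1 and 58.1% without TAK-931-2. At an unadjusted p under 0.05 the genes numbered 1003 of 14624 without Vehicle-1, 1019 of 14597 without Vehicle-2, 5672 of 13915 without TAK-931-1 and 9156 of 14506 without TAK-931-2. The median log2 fold change of the 10 genes ranged from 0.77 to 0.88 in these fits, and was 0.90 when at least 10 counts were required in every library. The median of the receptor to IKK list ranged from 0.025 to 0.35, that of the other regulators from 0.065 to 0.52 and that of the target genes from 1.56 to 2.67, each lowest without TAK-931-1 and highest without TAK-931-2.

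The replicate block called 144 of 13669 genes (1.05%), 0 of the 10 and 4 of the target genes, with a lowest adjusted p among the 10 of 0.0792. Across genes, libraries sharing a number deviated from their groups with a correlation of 0.0041, and no label ties a number to a shared cage, batch or day. The column headers carry a letter that same-numbered libraries share, and its meaning is not given in the sources used here.

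Of 130 values of the 10 genes under 13 alternatives, 111 kept direction and call, 17 passed the threshold in the same direction and 2 changed sign, both with 1 library left out, of which Nfkbia without TAK-931-2 also passed. In those fits Rela ranged from −0.030 (without Vehicle-2) to 0.079, and Nfkbia from −0.29 (without TAK-931-2) to 0.40. Signs also changed for Ikbkb, from −0.017 without TAK-931-1 to 0.64, Traf3, from −0.26 without TAK-931-2 to 0.50, Nfkbib, from −0.20 to 0.015 without Vehicle-1 and 0.0055 without TAK-931-2, Cyld, from −0.48 to 0.065 without TAK-931-1, and Sod2, from −0.056 without TAK-931-1 to 0.20. For the log2 ratio of inhibitors to subunits, the difference of TAK-931 minus vehicle was −0.15. This difference became 0.042 with Nfkbiz and Bcl3 added and ranged from −0.50 to 0.20 with 1 library left out. The difference in the Nfkb1 share, 0.94 percentage points, ranged from −0.23 to 2.11. The cause of these changes was not tested. With 2 libraries per group, an exact test cannot go below 0.333.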

Other observations

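The κB consensus was also counted in the promoters of the lists around the 10 genes. In the 250 bases before a start, a match was found for 11 of the 23 target genes with a window (47.8%), for 4 of 12 other regulators (33.3%) and for 4 of 20 genes from receptors to IKK (20%), against 8.23% of all genes with a window. The rates were not tested against each other, and the target genes were picked as known to be induced through NF-κB. The target genes with a match were Il6, Cxcl1, Cxcl2, Ccl20, Cxcl10, Sod2, Ier3, Tnfaip2, Csf1, Irf1 and Lif. Of these, Sod2 had a log2 fold change of 0.093 and Cxcl10 of 3.06. Among the 10 genes, those with a match had log2 fold changes of 1.62 (Nfkbie), 1.02 (Tnfaip3), 0.94 (Rel), 0.69 (Nfkb2) and 0.11 (Nfkbia). Bcl3 and Rela, which had a window but no match, had 2.38 and 0.034. Whether a match goes with the change was not tested.

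The target genes Ccl20, Csf2 and Sele had too few counts to be tested. Ccl20, a chemokine gene named after its values were seen, had 4 and 2 counts in the vehicle pair and 0 in both treated libraries.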
